A study of Papio anubis and Macaca mulatta with 6 samples.

Results

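Sertoli cells are the somatic supporting cells of the seminiferous tubule. Before puberty they are immature: they secrete anti-Mullerian hormone (AMH) and inhibins, carry the receptor for follicle-stimulating hormone (FSH) from the pituitary, and surround the spermatogonia without the closed blood-testis barrier of the adult. SOX9, a transcription factor, sets and keeps their identity, and desert hedgehog (DHH) is their signal to the Leydig and peritubular cells outside the tubule.

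The cells described here are rhesus macaque Sertoli cells, chosen by a rule on gene counts. Of 22648 rhesus barcodes with at least 1000 UMIs (unique molecular identifiers, each standing for a captured mRNA molecule), 7520 met the rule. The whole series held 44341 such barcodes. A barcode was kept when the UMIs of 10 Sertoli genes (S: AMH, INHA, INHBB, FATE1, AARD, PRND, SERPINA5, APOA1, SOX9 and DHH) made up at least 0.3% of its UMIs and at least 4 times the UMIs of the stromal genes (T: DCN, TCF21, C7, NR2F2, COL1A1 and COL3A1), and when it held fewer than 2 UMIs of KRT19. PDGFRA, also meant for T, was not found under that symbol. The genes of the rule therefore describe the choice and were given no test.

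The series profiled unsorted testis cells of 2 rhesus macaques and 2 baboons by droplet single-cell RNA-seq (10x Genomics), all untreated and before puberty. Testes came from necropsy and were digested with enzymes, with washes that remove interstitial cells, so that shares of cell types are those of the suspension and not of the tissue. Rhesus 1 gave 1 library and rhesus 2 gave libraries 2A and 2B, with 38106092, 19675453 and 18806225 UMIs in all barcodes. Libraries 2A and 2B are of the same animal and show technical spread only. The animals of the series differ in age, but the sources disagree on which age belongs to which species. The study's paper gives 15 and 20 months for the rhesus macaques, and newborn and 26 months for the baboons. The series text gives the ages to the species the other way, so no age was tied to a rhesus animal. Age, animal and library preparation cannot be told apart between rhesus 1 and rhesus 2.

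The rule kept 40.8% of the barcodes of rhesus 1 (4249 of 10403; 95% Clopper-Pearson interval, 39.9 to 41.8%) and 26.7% of those of rhesus 2 (3271 of 12245; 25.9 to 27.5%), a mean of 33.8% ± 9.99 (SD, n = 2 animals). Intervals cover counting error only. Library 2A gave 25.9% and library 2B 27.5%. The order of the animals depended on the UMI minimum, because the shares at 2000 UMIs were 37.5% in rhesus 1 and 38.4% in rhesus 2. The median Sertoli barcode held 1525 UMIs in rhesus 1, 1902 in 2A and 1842.5 in 2B, and the median of all other barcodes 1705, 1552 and 1546.

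**Figure D1:**
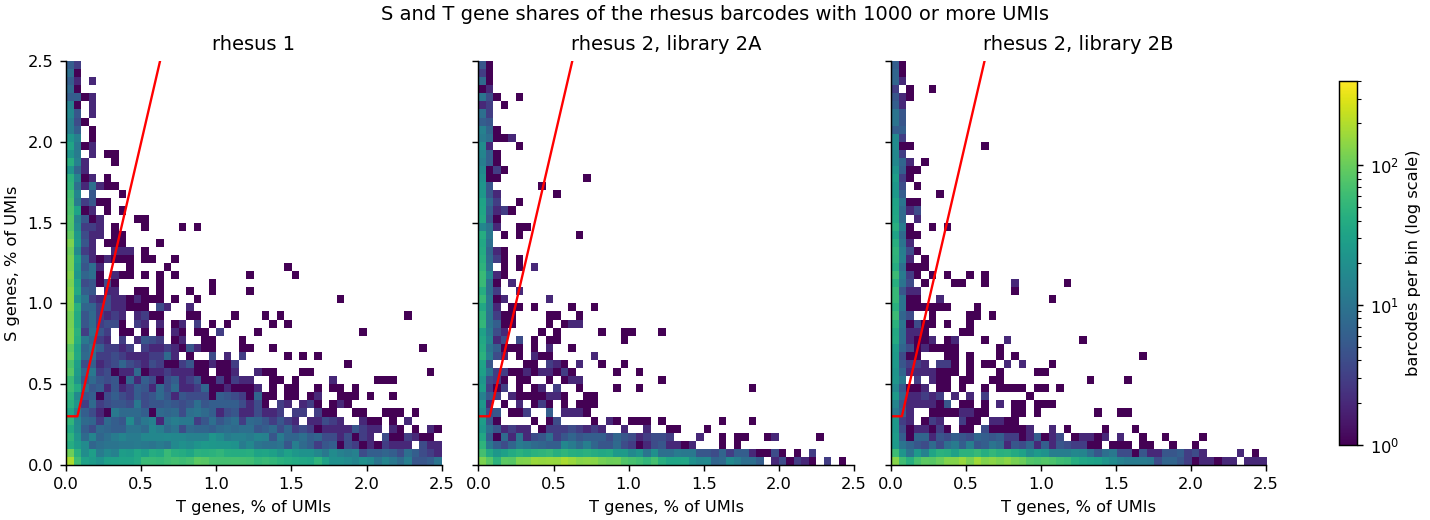
Share of UMIs from the S genes (vertical axis, %) against the share from the T genes (horizontal axis, %) for barcodes with at least 1000 UMIs in the 3 rhesus libraries; colour gives barcodes per bin on a log scale. The red line marks the S and T limits, and the Sertoli barcodes above and to the left of it number 4249 in rhesus 1, 1647 in 2A and 1624 in 2B.

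Few barcodes lay near the S limit. In rhesus 1, 111 members had an S share of 0.3 to 0.4%, and 99 barcodes that met the other criteria had 0.2 to 0.3%. These numbers were 49 and 59 in 2A, and 35 and 48 in 2B. The UMI limit crossed a denser range in rhesus 1, with 587 members at 1000 to 1100 UMIs. There, 623 barcodes that met the other criteria held 900 to 1000 UMIs. In 2A these numbers were 89 and 99, and in 2B 88 and 69. The median S share of members was 1.096%, 1.16% and 1.19% in rhesus 1, 2A and 2B, and 60.7 to 62.4% of members held no T UMI. The KRT19 criterion removed only 1 barcode, so KRT19-high barcodes were not compared.

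RNA free in the droplets was rich in the same genes. Near-empty barcodes of 2 to 50 UMIs drew 0.546%, 0.408% and 0.429% of their UMIs from S genes in rhesus 1, 2A and 2B, above the S limit, but held 1.88, 2.15 and 1.94 S UMIs per T UMI, below the ratio that the rule asks for. Levels in near-empty barcodes are therefore given for genes of the rule and where they bear on a comparison. Stroma-gated barcodes, chosen by the mirror of the rule (T at least 0.3% of UMIs and at least 4 times S), served as a comparison class, with 3860 barcodes in rhesus 1 and 6593 in rhesus 2. Their median barcode held 1654.5, 1514 and 1509.5 UMIs in rhesus 1, 2A and 2B.

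AMH, the hormone that makes the Mullerian ducts regress in the male fetus, stood at 6413, 6934 and 7148 CPM (UMIs of the gene per 1000000 UMIs) in the summed Sertoli barcodes of rhesus 1, 2A and 2B. Stroma-gated barcodes held it at 294, 104 and 106 CPM and near-empty barcodes at 2738, 1753 and 1871 CPM, all below the Sertoli values. After each barcode was thinned to 1000 UMIs, an AMH UMI was present in 97.7% of Sertoli barcodes of rhesus 1 and 96.5% of those of rhesus 2, against 23.96 and 10.0% of stroma-gated barcodes. Unthinned, the shares were 99.3 and 97.9% and, in stroma-gated barcodes, 35.0 and 15.3%. When AMH was left out of S, the barcodes inside the rule still held it at 6717 and 7330 CPM in the animals, 5.46 and 10.8 times the level outside.

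INHA, the alpha subunit of the inhibins, which restrain FSH release, stood at 2027, 1780.2 and 1809 CPM (1077, 941 and 978 CPM in near-empty barcodes). INHBB, the beta B subunit that pairs with it in inhibin B, stood at 119.8, 92.0 and 90.6 CPM (86.4, 31.7 and 35.0 CPM in near-empty barcodes). For both genes rhesus 1 lay a little above 2A and 2B. SOX9 was at 328, 789.8 and 836 CPM and DHH at 89.4, 161 and 166 CPM, and both were lower in rhesus 1 than in either library of rhesus 2. Near-empty barcodes held SOX9 at 182, 227 and 251 CPM and DHH at 42.1, 47.6 and 41.0 CPM, below the Sertoli barcodes of the same library. A SOX9 UMI was present in 18.2 and 49.7% of thinned Sertoli barcodes of rhesus 1 and rhesus 2 (30.2 and 67.3% unthinned), and in 1.27 and 1.53% of stroma-gated barcodes (2.23 and 2.40% unthinned). The part of free RNA in these shares was not tested. Left out of its own selection, SOX9 was 8.21 and 18.6 times higher inside the rule than outside in the animals, and DHH 6.98 and 16.0 times.

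SERPINA5, a serine protease inhibitor, was at 886, 772 and 784 CPM, and APOA1, an apolipoprotein of lipid transport, at 1727, 1147 and 1125 CPM. Near-empty barcodes held them at 474, 313 and 355 CPM and 741, 588 and 578 CPM. FATE1, a cancer-testis antigen, was at 184, 135 and 149 CPM and AARD at 4.52, 5.49 and 3.70 CPM (103, 124 and 127 CPM and 2.34, 3.97 and 3.997 CPM in near-empty barcodes, for AARD above the Sertoli level in 2B). Each of these 4 genes differed by less than 2-fold between the libraries. PRND, which encodes the prion-like protein doppel, separated the animals, with 4.63, 187 and 192 CPM, and in rhesus 1 near-empty barcodes held more of it (9.35, 47.6 and 50.5 CPM in the libraries). It was also the weakest member of S, since without it in S its level inside the rule was only 1.65 and 1.41 times that outside in rhesus 1 and rhesus 2.

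AMH lies at chr19:2095891-2099223 (plus strand), DHH at chr11:48698143-48704542 (minus strand) and FSHR, the FSH receptor, at chr13:59619221-59810269 (plus strand) in the RefSeq annotation of Mmul_10, the assembly the rhesus counts were made on. The 250 bases before the annotated starts of AMH, which led the rule, and FSHR, the receptor described next, are shown because AMH belongs to S and FSHR was higher in Sertoli barcodes than in all others (chr19:2095641-2095890 and chr13:59618971-59619220, both plus strand). The letters AACAAT (for SOX factors), AAGGTCA (for NR5A1) and AGATAA (for GATA factors) were searched on both strands, and capitals mark a match.
AMH: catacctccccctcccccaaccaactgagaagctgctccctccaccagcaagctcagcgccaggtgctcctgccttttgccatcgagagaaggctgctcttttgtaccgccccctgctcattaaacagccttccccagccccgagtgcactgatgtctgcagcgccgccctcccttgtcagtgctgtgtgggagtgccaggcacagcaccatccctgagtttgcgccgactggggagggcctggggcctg
FSHR: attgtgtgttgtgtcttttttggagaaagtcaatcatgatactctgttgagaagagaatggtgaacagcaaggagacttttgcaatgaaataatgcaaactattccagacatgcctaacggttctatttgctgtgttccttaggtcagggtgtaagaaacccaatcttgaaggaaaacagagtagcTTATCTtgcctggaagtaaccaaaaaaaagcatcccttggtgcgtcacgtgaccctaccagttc
The AMH window held none of these letters. The FSHR window held AGATAA on the opposite strand (TTATCT as printed), 64 to 59 bases before the start. Of 20782 such windows in the annotation, 7.82% held AACAAT, 3.20% AAGGTCA and 8.40% AGATAA. A match describes letters only.

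To find what else these cells carried, UMIs were summed per animal and class, and the Sertoli sums were compared with the sums of all other barcodes by edgeR's quasi-likelihood test (2 animals; Benjamini-Hochberg adjusted p over all genes, threshold 0.05). Besides the genes of the rule, 358 of 12459 genes tested were higher in Sertoli barcodes (2.87%) and 424 lower (3.40%), together 6.28%, and 3083 had an unadjusted p under 0.05. With the animal as a block, which fits because each animal gave both classes, 1946 genes were higher (15.6%) and 2042 lower (16.4%), together 32.0%, among them all 782 calls of the fit without the block. Of the 782, 454 were called in all 4 fits that left out a sum. Both classes were cut from the same libraries with 17 genes, so genes expressed together with those were sorted along. Without the block, the p-values set the difference against the spread of the 2 animal sums within each class. With it, they measure only how alike the difference was in 2 animals. Of 22 genes of the lists that were higher, 20 were also above the near-empty barcodes in all 3 libraries. The exceptions were CITED1 and HSD17B3, which were below them in rhesus 1.

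Some receptors of hormones and growth factors were among the genes that rose. FSHR, through which FSH acts, stood at 18.1, 27.2 and 28.2 CPM in Sertoli barcodes of rhesus 1, 2A and 2B and at 2.65, 2.08 and 1.58 CPM in all other barcodes (2.34, 9.07 and 5.99 CPM in near-empty barcodes). No Sertoli value overlapped the others, and the log2 fold change was 3.28 ± 0.41 (SE; edgeR adjusted p = 0.0204). An FSHR UMI was present in 1.32 and 2.51% of thinned Sertoli barcodes of the animals and 0.104 and 0.106% of stroma-gated ones (3.44 and 5.59% and 0.130 and 0.182% unthinned). AMHR2, the AMH receptor, was at 148, 114 and 111 CPM against 27.9, 18.7 and 20.5 CPM (2.49 ± 0.44, adjusted p = 0.0369). IGF1R, the receptor of insulin-like growth factors, was at 24.6, 28.02 and 27.4 CPM against 7.00, 6.56 and 8.16 CPM (1.85 ± 0.32, adjusted p = 0.0364; up to 0.0973 with a sum left out).

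Of 18 hormone and growth factor receptors tested of 21 listed, 4 were higher and none lower, with a median log2 fold change of 0.06 against 0.00 over all genes tested. With the animal as a block 4 were higher and 6 lower. The fourth, ERBB4, was sparse at 1.69, 3.57 and 3.99 CPM, and its call was lost in every fit that left out a sum (adjusted p up to 0.2).

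Junction genes gave the most calls upward of any list. Of 22 tested of 31 listed, 8 were higher and none lower, with a median log2 fold change of 1.14. CDH2, the N-cadherin of Sertoli and germ cell contacts, was at 92.2, 175 and 170.1 CPM against 11.7, 14.4 and 15.0 CPM (3.24 ± 0.29, adjusted p = 0.016). CLDN3, a claudin of tight junctions, was at 125, 237 and 247 CPM against 21.1, 16.8 and 15.5 CPM (3.20 ± 0.33, adjusted p = 0.0161). Each of these was higher in 2A and 2B than in rhesus 1, and above all other barcodes in each library.

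DSP and DSC2, desmosome proteins, rose by 3.52 and 3.16 on the log2 scale, and ESPN, which bundles actin in the ectoplasmic specialisations of Sertoli cells, by 3.42. JAM2, a junctional adhesion molecule, NECTIN2, a nectin, and JUP, the plakoglobin that links cadherins to the cytoskeleton, rose by 2.21, 1.83 and 1.92. All calls but that of JUP (adjusted p = 0.0587 without the Sertoli sum of rhesus 1) held in each fit that left out a sum. With the animal as a block 13 junction genes were higher and 4 lower. TJP1, the tight junction scaffold ZO-1, at 99.7, 148 and 158 CPM against 37.7, 63.3 and 63.7 CPM, passed only with the block (adjusted p = 0.0707 without it and 0.00472 with it).

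CLDN11, the claudin of the mature blood-testis barrier, stood apart from these. It was at 63.7, 279.7 and 323 CPM in Sertoli barcodes and 62.3, 109 and 131 CPM in all others, level in rhesus 1 and higher in both libraries of rhesus 2. It passed neither without the block (0.83 ± 0.60, adjusted p = 0.461) nor with it (adjusted p = 0.0865), and its direction turned without the Sertoli sum of rhesus 2 (-0.25).

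Among 25 tested transport and surface proteins known from Sertoli cells, 3 were higher and none lower (median 0.67; 10 and 2 with the block). TF, the transferrin that carries iron to germ cells, was at 438, 491 and 507 CPM against 62.2, 24.8 and 23.4 CPM (3.40 ± 0.58, adjusted p = 0.0342). DEFB119, a beta-defensin, was at 23.4, 28.3 and 23.9 CPM against 4.20, 4.27 and 3.78 CPM (2.57 ± 0.36, adjusted p = 0.0235). GAS6, a bridging ligand in the clearance of dying cells, was at 930.1, 1268 and 1277 CPM against 269, 172 and 176 CPM (2.26 ± 0.43, adjusted p = 0.0431). All 3 lay above all other barcodes in every library, but GAS6 lost its call in 2 of the 4 fits that left out a sum (adjusted p up to 0.228).

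CLU, the secreted chaperone clusterin, stood at 3027, 3469.8 and 3655 CPM against 658, 391.9 and 429 CPM, also without overlap. It missed the threshold in the fit without the block (2.59 ± 0.55, adjusted p = 0.0538) and passed with it (adjusted p = 0.00619). BEX1, at 1642, 1463 and 1455 CPM against 418, 294 and 284 CPM, did the same (2.14 ± 0.50, adjusted p = 0.0651; 0.00489 with the block). Near-empty barcodes held CLU at 1853, 2076 and 2212 CPM and BEX1 at 1044, 1283 and 1173 CPM, between the classes.

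**Figure D2:**
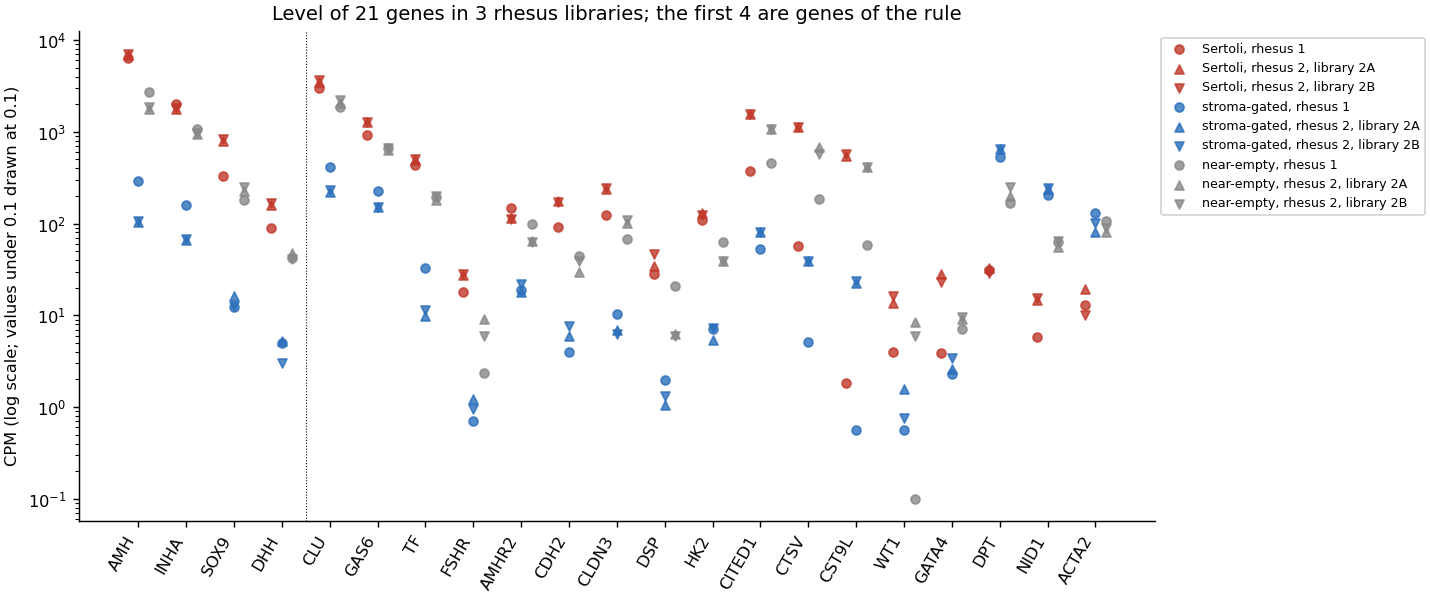
Level of genes of the rule, further Sertoli genes and stromal genes (CPM, log scale) in Sertoli (red), stroma-gated (blue) and near-empty barcodes (grey); circles are rhesus 1, upward triangles 2A and downward triangles 2B, and values under 0.1 are drawn at 0.1. The Sertoli values of FSHR (18.1, 27.2 and 28.2 CPM) and CDH2 lay above both other classes, CST9L and CTSV were far lower in rhesus 1 (1.81 and 57.3 CPM) than in rhesus 2, and DPT, NID1 and ACTA2 were lowest in Sertoli barcodes.

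Transcription factors of the gonad went both ways. Of 19 tested of 24 listed, 2 were higher and 2 lower (median -0.39; 7 and 9 with the block). MAMLD1, a coactivator with a part in male sex development, was at 50.8, 85.7 and 97.7 CPM against 10.9, 10.3 and 14.6 CPM (2.54 ± 0.27, adjusted p = 0.0163). CITED1, a coactivator that binds no DNA itself, was at 379, 1568 and 1572 CPM against 77.6, 122 and 119 CPM (3.13 ± 0.61, adjusted p = 0.0454; 0.0613 without the other barcodes of rhesus 1). In rhesus 1 near-empty barcodes held CITED1 at 460.3 CPM, above the Sertoli barcodes, and the part of free RNA in its level was not tested.

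SOX8, a relative of SOX9 that is also known from Sertoli cells, was lower. It stood at 1.35, 0.824 and 1.14 CPM in Sertoli barcodes and 20.1, 8.97 and 8.52 CPM in all others (-3.61 ± 0.70, adjusted p = 0.0446; up to 0.0595 with a sum left out), and at 27.2, 9.41 and 9.81 CPM in stroma-gated barcodes. EMX2, a homeobox gene of the early gonad, was at 0.790, 0.824 and 0.855 CPM against 10.3, 8.64 and 8.28 CPM (-3.53 ± 0.54, adjusted p = 0.0281).

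WT1 and GATA4, transcription factors often used to mark Sertoli cells, were sparse. WT1 had 35 and 107 UMIs in the Sertoli sums of the animals, at 3.95, 13.7 and 16.2 CPM in the libraries against 0.934, 3.61 and 2.19 CPM (2.13 ± 0.76, adjusted p = 0.163; 0.00494 with the block). GATA4 was at 3.84, 28.02 and 22.8 CPM against 3.11, 3.39 and 4.02 CPM (1.89 ± 0.75, adjusted p = 0.199; 0.0496 with the block), so that in rhesus 1 the classes were nearly level. SRY, the sex-determining gene of the Y chromosome, was at 3.39, 7.97 and 10.8 CPM against 0.622, 0.875 and 0.731 CPM and just missed the threshold (3.01 ± 0.62, adjusted p = 0.0514; 0.00346 with the block). DMRT1 had 11 and 20 UMIs and NR5A1 3 and 12 UMIs in the Sertoli sums, and a difference was not detectable for either at this depth.

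In all, 18 genes known from Sertoli cells but not used by the rule were counted to describe the label. They are no independent check, because the list was chosen with earlier results of these data known. Genes expressed together with those of the rule were also sorted along. Of the 18 genes 4 were higher (FSHR, DEFB119, TF and CITED1) and 1 lower (SOX8), with a median log2 fold change of 2.10. With the block 11 were higher and 2 lower. SHBG, the androgen carrier, was at 1.69, 2.75 and 1.71 CPM against 2.18, 2.63 and 4.26 CPM and did not pass (adjusted p = 0.617). CTSV, a cathepsin, and CST9L, a cystatin, passed only with the block (adjusted p = 0.00465 and 0.000767). In rhesus 1 both were lower in Sertoli barcodes (57.3 and 1.81 CPM) than in near-empty ones (187 and 58.4 CPM). All other barcodes of rhesus 1 held them at 18.2 and 0.467 CPM, also below the near-empty level. The near-empty barcodes of rhesus 1 held 427996 UMIs, against 1764710 in 2A and 2001720 in 2B. The source of these near-empty UMIs was not tested.

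Of 17 tested secreted factors 1 was higher and 2 were lower (median -1.98; 4 and 8 with the block). PDGFA, a ligand for the mesenchymal cells around the tubules, was at 13.4, 26.9 and 34.5 CPM against 3.03, 1.42 and 2.56 CPM (3.02 ± 0.48, adjusted p = 0.0302). BMP2, a bone morphogenetic protein, and NRG1, a neuregulin, were each under 1 CPM in every Sertoli library (-3.27 and -3.74), and their calls were lost with a sum left out (adjusted p up to 0.142 and 0.165). IGF2, a fetal growth factor, was at 347, 1319 and 1125 CPM against 6984, 9561 and 9513 CPM (-3.55 ± 0.75, adjusted p = 0.0538; 0.00758 with the block). FGF9, which acts with SOX9 in testis determination, was at 12.3, 4.396 and 4.27 CPM against 2.10, 1.42 and 0.731 CPM (2.49 ± 0.85, adjusted p = 0.147; 0.00678 with the block). KITLG, the ligand of KIT on germ cells, had 10 and 2 UMIs.

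Of 20 tested genes of glycolysis and lactate, which Sertoli cells supply to germ cells, 1 was higher and 2 were lower (median -0.07; 4 and 5 with the block). HK2, a hexokinase, was at 109, 130.5 and 123.4 CPM against 13.8, 10.3 and 12.4 CPM (3.20 ± 0.31, adjusted p = 0.016). SLC2A3, a glucose transporter, and PFKL, a phosphofructokinase, had log2 fold changes of -3.60 and -1.55 (adjusted p = 0.0304 and 0.0333), and that of PFKL was lost with a sum left out (up to 0.114). LDHA, a lactate dehydrogenase subunit, was at 61.7, 55.2 and 49.3 CPM against 171, 117 and 119 CPM (-1.33 ± 0.40, adjusted p = 0.113; 0.00246 with the block).

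HSD17B3, which makes testosterone from androstenedione, was the only call among 16 tested steroid genes, at 29.3, 110.2 and 91.8 CPM against 4.98, 6.23 and 5.72 CPM (3.41 ± 0.48, adjusted p = 0.0243; with the block 4 genes of the list were higher and 3 lower). In rhesus 1 near-empty barcodes held it at 32.7 CPM, close to the Sertoli level. Of 13 retinoid genes RARG, a retinoic acid receptor, and ALDH1A3, which makes retinoic acid, were lower (-3.74 and -3.85; adjusted p = 0.0266 and 0.0342; with the block 2 of the list were higher and 4 lower). STAR, which feeds cholesterol to steroid synthesis, was at 90.3, 99.2 and 94.3 CPM against 108, 84.8 and 99.0 CPM, with overlapping values (adjusted p = 0.867).

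Basement membrane and laminin receptor genes gave 2 higher and 4 lower of 20 tested (median -0.96; 4 and 9 with the block). NID1, a nidogen, was at 5.87, 14.6 and 15.4 CPM against 143, 195 and 199 CPM (-4.14 ± 0.39, adjusted p = 0.016). The laminin chains LAMB1, LAMA2 and LAMA4 had log2 fold changes of -3.98, -4.37 and -1.62. ITGA6, an integrin that binds laminin, was at 39.6, 86.5 and 81.8 CPM against 9.26, 17.7 and 17.7 CPM (2.11 ± 0.39, adjusted p = 0.0404; 0.0754 without the Sertoli sum of rhesus 2). COL18A1, a basement membrane collagen, rose by 1.32, but it and LAMA4 lost their calls in each fit that left out a sum (adjusted p up to 0.12 and 0.132).

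None of 23 tested cell cycle genes was called by edgeR without the block (median -0.80), and 3 were higher and 7 lower with it. MKI67, a marker of dividing cells, was at 0.339, 1.65 and 0.570 CPM against 3.11, 5.03 and 7.06 CPM (adjusted p = 0.0815; 0.00602 with the block). Of 10 cell cycle inhibitors CDKN2C alone was called and was lower (-2.65 ± 0.45, adjusted p = 0.0336; up to 0.0625 with a sum left out; 1 higher and 3 lower with the block). None of 5 intermediate filament genes was called, and 2 were lower with the block. VIM, the vimentin of Sertoli and stromal cells alike, was at 1019, 895 and 876 CPM against 1704, 2510.2 and 2504 CPM (adjusted p = 0.246). Of 14 immediate early and heat shock genes HSPB1, a small heat shock protein, was lower at 69.1, 76.6 and 80.9 CPM against 404, 354 and 379 CPM (-2.40 ± 0.32, adjusted p = 0.0227; 1 higher and 4 lower with the block).

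**Figure D3:**
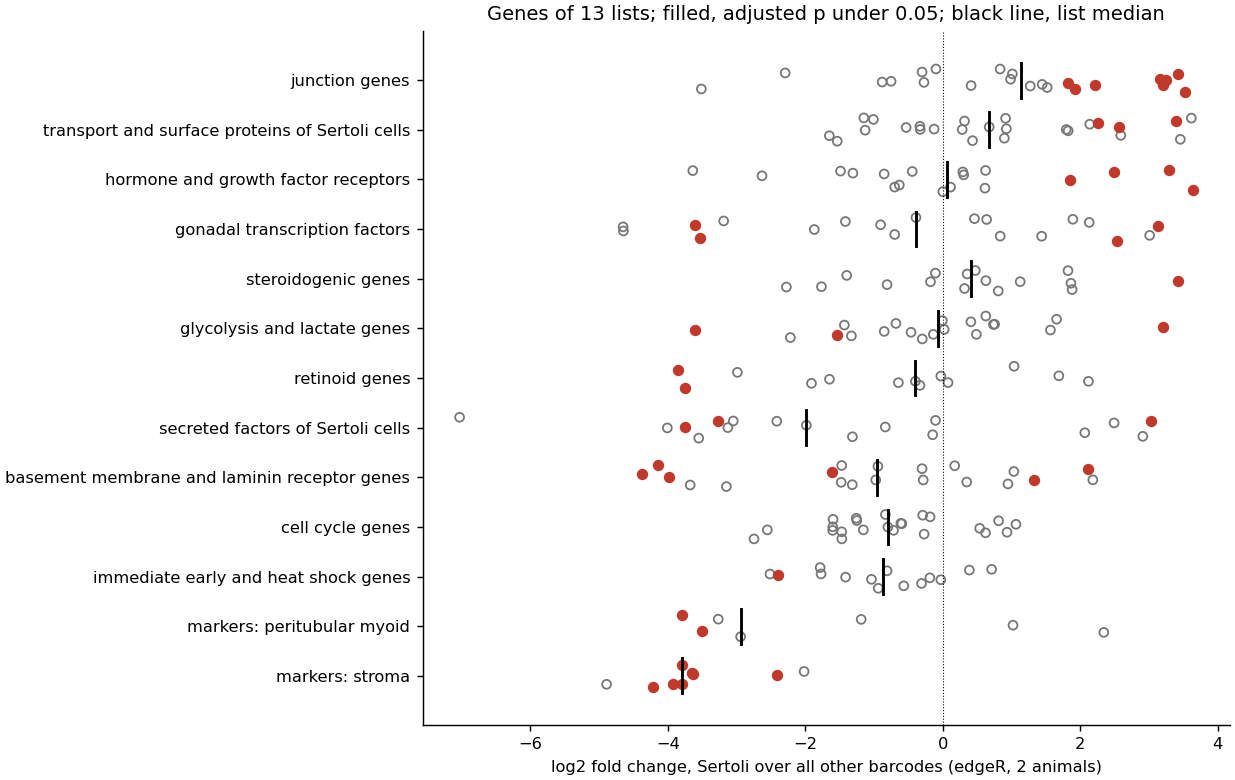
Log2 fold change of Sertoli over all other rhesus barcodes (horizontal axis; edgeR, 2 animals) for the tested genes of the gene lists; each circle is a gene, filled red at an adjusted p under 0.05, and the black line is the list's median. The filled junction genes lie right of 0 (8 higher, none lower), those of stroma and peritubular myoid markers left of 0, and the cell cycle list has none.

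Outside the lists, the 15 genes with the largest rises rose by 2.97 to 3.63 on the log2 scale. MAP3K21, a kinase of the mixed-lineage family, was at 74.1 and 97.8 CPM in Sertoli barcodes of rhesus 1 and rhesus 2 against 6.85 and 6.68 CPM in all others (3.63 ± 0.28, edgeR adjusted p = 0.016). C1H1orf141, an open reading frame on chromosome 1, was at 67.96 and 249.96 CPM against 9.41 and 13.8 CPM. ADGRG1, an adhesion receptor, was at 293 and 306 CPM against 36.6 and 31.9 CPM, nearly the same in both animals. RAB17, a GTPase of epithelial trafficking, was also level between them at 67.5 and 67.1 CPM against 10.3 and 6.45 CPM.

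The next genes of the 15 were also higher in both animals. SCG5, a chaperone of a prohormone convertase, was at 269.8 and 506 CPM against 50.7 and 39.8 CPM, and CRHBP, which binds corticotropin-releasing hormone, at 80.5 and 153 CPM against 14.3 and 9.68 CPM. WFDC2, a secreted protein of reproductive epithelia, was at 234 and 343 CPM against 42.9 and 23.8 CPM. COL9A1, a collagen chain best known from cartilage, was at 148 and 198 CPM against 22.3 and 18.04 CPM, and FAM20C, a kinase of secreted proteins, at 79.8 and 211 CPM against 12.6 and 18.4 CPM. The others were KCNK13, a potassium channel, RIMS4, of the synaptic RIM family, MT3, a metallothionein, A4GALT, a glycosyltransferase, RRAD, a small GTPase, and TSTD1. All 15 calls held in every fit that left out a sum.

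The 10 largest falls outside the lists had log2 fold changes of -4.35 to -5.14, and these calls also held in every such fit. PI15, a peptidase inhibitor, was at 2.60 and 3.78 CPM in Sertoli barcodes against 94.6 and 125 CPM, and RSPO3, which strengthens WNT signals, at 2.60 and 3.92 CPM against 102 and 92.2 CPM. PMP22, a membrane protein of myelin and fibroblasts, was at 15.8 and 17.6 CPM against 393 and 415 CPM, and MFAP4, of microfibrils, at 11.7 and 29.2 CPM against 255 and 693 CPM. The others were CYP1B1, a cytochrome P450, SLC7A10, an amino acid transporter, SPOCK3, a proteoglycan, SYT1, a synaptotagmin, ITM2A and QPCT.

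Against the stroma-gated barcodes alone, a comparison that shares the Sertoli sums, 717 of 11642 genes besides those of the rule were higher (6.16%) and 716 lower (6.15%), together 12.3%, by the same test. With the animal as a block 2003 were higher (17.2%) and 1829 lower (15.7%), together 32.9%. FSHR had a log2 fold change of 4.49, CDH2 4.45, CLDN3 4.27 and TF 4.29, and these 4 calls held in each fit that left out a sum. Of the 1433 calls, 459 held in all 4 such fits. Junction genes gave 10 higher and 1 lower of 20 tested (median 2.47 against 0.01 over all genes tested). These included TJP1 (2.41, edgeR adjusted p = 0.00806) and F11R, a junctional adhesion molecule (3.99, adjusted p = 0.0203), and the lower gene was CLDN1, with 3 UMIs in all Sertoli barcodes. Of the 10 higher calls 9 held in every fit that left out a sum. F11R lost its call without the Sertoli sum of rhesus 2 (adjusted p = 0.0605), and CLDN1 in every such fit.

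Of the 18 genes known from Sertoli cells but not used by the rule, 7 were higher and 1 lower of 15 tested (median 3.24; 11 and 1 with the block). CLU (3.25, edgeR adjusted p = 0.0269), BEX1 (2.41, 0.0331) and WT1 (3.15, 0.0461) passed in this comparison. Each of these 3 lost its call in 2 of the 4 fits that left out a sum (adjusted p up to 0.204, 0.183 and 0.248), and 4 of the 7 higher calls held in all of them. CYP11A1, the enzyme that opens steroid synthesis and is a Leydig marker, was higher in Sertoli barcodes, at 23.9, 17.0 and 21.4 CPM against 3.69, 1.57 and 1.70 CPM (2.97, adjusted p = 0.0343; up to 0.1 with a sum left out). Near-empty barcodes held it at 11.7, 13.6 and 14.5 CPM. CNN1, a calponin of smooth muscle, was higher too, at 77.9, 51.1 and 56.7 CPM against 8.08, 3.83 and 6.04 CPM (3.31, adjusted p = 0.0194), as was S100B, a calcium-binding protein on the glia list, at 10.5, 41.2 and 46.2 CPM against 1.42, 2.44 and 2.64 CPM (3.49, adjusted p = 0.027). The call of CNN1 held in each fit that left out a sum, and that of S100B was lost without the Sertoli sum of rhesus 2 (adjusted p = 0.101). Near-empty barcodes held CNN1 at 30.4, 36.3 and 38.0 CPM and S100B at 18.7, 29.5 and 36.0 CPM, the latter above the Sertoli level in rhesus 1.

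The other lists were counted against stroma-gated barcodes by the same test. Hormone and growth factor receptors gave 3 higher and 4 lower of 18 tested (median -0.22; 4 and 5 with the block), where none was lower against all other barcodes. The higher receptors were FSHR, AMHR2 (2.72) and IGF1R (2.00; adjusted p up to 0.0937 with a sum left out). The lower ones were ESR1, an oestrogen receptor, at 2.37, 0.549 and 0.855 CPM against 39.3, 12.9 and 14.3 CPM (-4.09, edgeR adjusted p = 0.0436), PTCH1, the hedgehog receptor (-2.87), ACVR1, a receptor of bone morphogenetic proteins (-1.65), and THRA, a thyroid hormone receptor (-1.06). Each of these 4 lost its call in at least 1 fit that left out a sum, while those of FSHR and AMHR2 held in all 4 fits.

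Gonadal transcription factors gave 3 higher (CITED1, MAMLD1 and WT1) and 4 lower of 15 tested (median 0.45; 7 and 7 with the block), the lower ones being SOX8, EMX2, LHX9 and NR0B1. Only the calls of CITED1 and MAMLD1 held in all 4 fits that left out a sum (adjusted p of the lower genes up to 0.0988, 0.0599, 0.066 and 0.173). Secreted factors gave 1 higher, PDGFA, and 4 lower of 15 (median -2.12; 5 and 7 with the block), among the lower IGF2 (-3.96, edgeR adjusted p = 0.0348) and INHBA, the beta A subunit of inhibin and activin (-4.52, adjusted p = 0.032). None of these 5 calls held in all 4 such fits (up to 0.0636 for PDGFA, 0.0871 for IGF2 and 0.0648 for INHBA). Basement membrane genes gave 2 higher, ITGA6 and COL18A1, and 5 lower of 20 (median -0.97; 4 and 8 with the block), of which ITGA6 and 3 of the lower held in all 4 fits (COL18A1 up to 0.12). Transport and surface proteins gave 5 higher and none lower of 23 (median 0.58; 9 and 1 with the block), steroid genes 3 and 1 of 15 (median 0.58; 6 and 2), glycolysis genes 2 and 2 of 19 (median -0.09; 4 and 4) and retinoid genes none and 2 of 13 (median -0.74; 2 and 6). In all 4 fits that left out a sum, 2 of the 5 transport genes, 1 of the 3 higher and none of the lower steroid genes, 1 of the 2 higher and none of the lower glycolysis genes and 1 of the 2 retinoid genes held their calls. None of 22 cell cycle genes and none of 4 intermediate filament genes was called by edgeR without the block (5 higher and 2 lower, and none and 2, with it). Of 10 cell cycle inhibitors 1 was lower, and of 14 immediate early and heat shock genes 2 were lower (1 higher and 3 lower, and none and 5, with the block), and none of these 3 calls held in all 4 fits.

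Of the marker lists of other cell types, stroma markers gave 8 lower of 9 tested against stroma-gated barcodes, peritubular myoid markers 1 higher and 2 lower of 7, pericyte markers 1 and 1 of 4, glia markers 1 and 1 of 4 and Leydig markers 1 higher of 4. The calls of 6 stroma markers, all 3 peritubular myoid markers and LGI4 of the glia list held in all 4 fits that left out a sum, and those of the pericyte, S100B and Leydig markers did not. None of 2 germ, 6 endothelial, 8 macrophage, 4 lymphoid and 1 erythroid markers was called by edgeR without the block, and 2 endothelial and 4 macrophage markers were higher with it.

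Markers of other cell types were measured in the Sertoli barcodes too. Of 9 tested stroma markers 7 were lower than in all other barcodes, which the stromal genes in the rule favour. DPT, a matrix protein, was at 30.9, 32.4 and 28.8 CPM against 384, 469 and 479 CPM. ACTA2 and MYH11, smooth muscle genes among 7 tested peritubular myoid markers, were lower (-3.51 and -3.79), and CNN1 of the same list was at 77.9, 51.1 and 56.7 CPM against 17.5, 7.77 and 10.6 CPM and did not pass without the block (2.34 ± 0.53, adjusted p = 0.063). Also lower were LYZ, the lysozyme, of 9 macrophage markers and LGI4 of 4 glia markers (-2.86 and -3.86). None of 7 germ, 4 Leydig, 3 pericyte, 8 endothelial, 5 lymphoid and 2 erythroid markers was called by edgeR without the block. With it 9 stroma, 4 peritubular myoid, 3 germ, 8 endothelial, 9 macrophage, 2 lymphoid, 2 Leydig, 1 pericyte, 1 glia and 1 erythroid markers were lower. Higher with the block were CYP11A1 of the Leydig list (adjusted p = 0.00286), CNN1 and MYL9 of the peritubular myoid list (0.000384 and 0.0454), S100B of the glia list (0.000626) and EPCAM, the 1 tested gene of a list of KRT19-positive epithelium (0.00153).

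Some of these markers were present in Sertoli barcodes of rhesus 2 in particular. The 10 endothelial markers summed to 15.2, 326 and 262 CPM in rhesus 1, 2A and 2B (113, 545 and 563 CPM in all other barcodes, 107, 244 and 234 CPM in near-empty ones). At least 3 such UMIs were held by 0.188, 3.52 and 3.02% of Sertoli barcodes, whose median S share was 0.560, 0.508 and 0.516%, below that of all members. EGFL7, at 7.90, 89.3 and 79.8 CPM, and CLDN5, at 1.92, 90.9 and 79.5 CPM, led the list in rhesus 2.

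The 6 pericyte markers summed to 58.9, 243 and 234 CPM in Sertoli barcodes and 59.0, 166 and 173 CPM in all others. In rhesus 2 the sum was higher in Sertoli barcodes than in the others. The same held for the sum of the glia markers. Its values are left out because most of its UMIs come from a gene not reported here. INSL3, the Leydig cell hormone, was at 847, 125 and 187 CPM in Sertoli barcodes and 1164, 399 and 641 CPM in near-empty ones. Germ cell markers summed to 18.6, 11.8 and 6.55 CPM, macrophage markers to 90.5, 81.3 and 68.4 CPM and lymphoid markers to 37.8, 7.14 and 2.56 CPM. Without Sertoli barcodes that held at least 3 endothelial, macrophage, lymphoid or germ UMIs, 530 genes were higher and 795 lower, among them 781 of the 782 calls.

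Scrublet, which compares barcodes with simulated doublets, marked 500, 140 and 106 barcodes in rhesus 1, 2A and 2B, and 1.27%, 1.76% and 1.42% of the Sertoli barcodes. All were kept. Sertoli barcode sequences shared between libraries numbered 8 for rhesus 1 and 2A, 10 for rhesus 1 and 2B, and 2 for 2A and 2B, where chance in the list of barcodes gives 9.49, 9.36 and 3.63.

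The Sertoli barcodes of the 2 animals were then set side by side, without a test since each side is 1 animal. Of 3430 genes at 50 CPM or more in the higher animal, 71 were more than 2-fold higher in rhesus 1 (2.07%) and 465 in rhesus 2 (13.6%) against both 2A and 2B, together 15.6%. Only 3 genes (0.0875%) were past 2-fold between 2A and 2B. The median log2 ratio of rhesus 1 over rhesus 2 was -0.42, and after centring on it 163 genes were past 2-fold higher in rhesus 1 and 164 in rhesus 2. Genes with an RPL or RPS symbol took 27.1% of the Sertoli UMIs of rhesus 1 and 17.3% of those of rhesus 2. Of the 71 genes 68 and of the 465 genes 414 leaned the same way in the other barcodes, where 40 and 122 were past 2-fold.

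CST9L was the furthest apart, at 1.81, 546 and 567 CPM in Sertoli barcodes of rhesus 1, 2A and 2B (log2 ratio -8.27) and 0.467, 40.6 and 34.6 CPM in the other barcodes. CTSV was at 57.3, 1119.8 and 1139 CPM (-4.30), and its other barcodes held 18.2, 71.3 and 75.9 CPM. NPY, the neuropeptide Y, was at 2.60, 92.9 and 102 CPM, and HES7, a transcriptional repressor of the Notch pathway, at 2.93, 52.5 and 51.9 CPM. In all of these 2A and 2B lay close together and far above rhesus 1. GPIHBP1, a capillary endothelial protein, was at 1.35, 115 and 114 CPM and CLDN5 at 1.92, 90.9 and 79.5 CPM, which go with the endothelial sums given above. Their part in the difference was not tested.

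Higher in rhesus 1 were CES1, a carboxylesterase, at 70.7, 2.47 and 0.855 CPM (log2 ratio 5.40), CRYAB, a small heat shock protein, at 154, 22.3 and 22.2 CPM (2.80), and NR4A1, an orphan receptor induced early by stimuli, at 246, 37.4 and 48.4 CPM (2.52). In the other barcodes NR4A1 stood at 505, 47.3 and 55.4 CPM, so rhesus 1 was also the higher animal there. NCR1, a receptor of natural killer cells, was at 56.7, 5.77 and 5.13 CPM, H2AC20, a histone, at 82.5, 12.4 and 12.8 CPM and Mamu-B, a class I histocompatibility gene, at 989, 177 and 174 CPM. RPS15A and RPS24 were listed too (2.80 and 2.51), but their reads can be split with near-identical copies, as can those of Mamu-B, and these values are uncertain.

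Of the genes that describe Sertoli cells, AMH and INHA differed by less than 2-fold between the animals, before and after centring (log2 ratios -0.13 and 0.18 before it). SOX9 was lower in rhesus 1 (-1.31), as were CITED1 (-2.05), CLDN11 (-2.24), HSD17B3 (-1.78) and IGF2 (-1.82), and PTGDS, a prostaglandin D synthase, was higher (2.27). After centring on the median, 4 of 14 junction genes remained past 2-fold and higher in rhesus 2, as before centring, while SOX9 no longer was. The 4 were CLDN11, F11R (-2.08), NECTIN3, a nectin (-2.01), and CLDN5, which is also an endothelial marker. Of 9 genes of glycolysis none was past 2-fold.

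**Figure D4:**
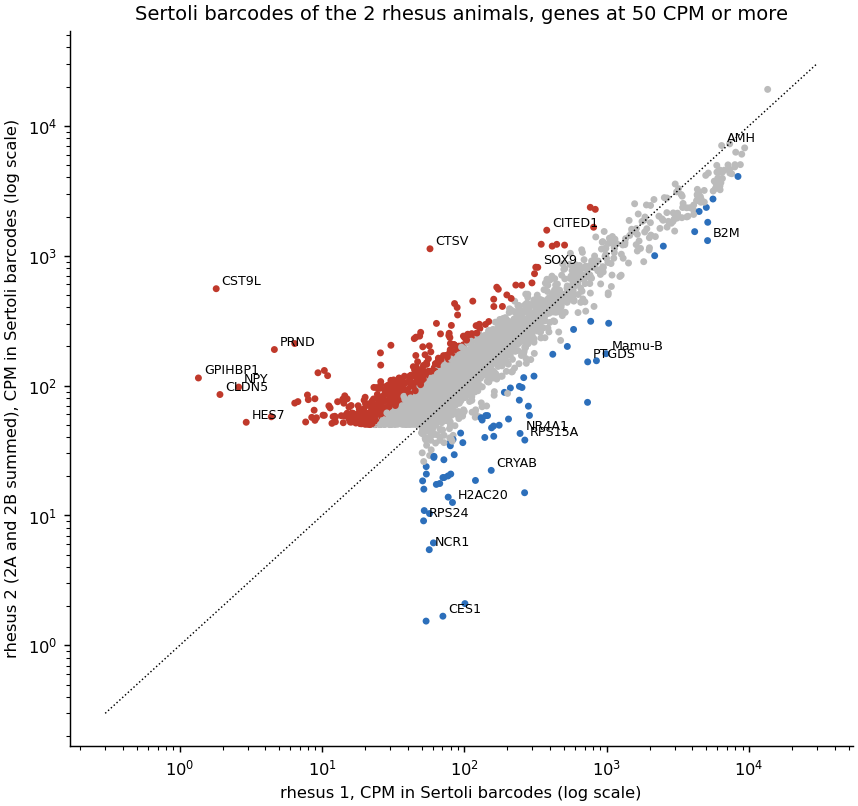
Sertoli level in rhesus 1 (horizontal axis, CPM) against rhesus 2 (vertical axis, CPM), both on log scales, for 3430 genes at 50 CPM or more in the higher animal; genes past 2-fold against both 2A and 2B are coloured. The 465 genes higher in rhesus 2 lie above the diagonal, with CST9L furthest out, and the 71 higher in rhesus 1 below it.

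The same rule kept 11122 of 14146 barcodes of baboon 1 (78.6%) and 3541 of 7547 of baboon 2 (46.9%). In baboon, near-empty barcodes drew 0.701 and 0.794% (both libraries of baboon 1) and 1.11% (baboon 2) of their UMIs from S genes and held 7.32, 8.74 and 6.90 S UMIs per T UMI, so that free RNA alone met both limits there, unlike in rhesus. With AMH left out of S, AMH was 1.497 and 1.34 times higher inside the rule than outside in the baboons. The baboon shares and levels are therefore not those of an equally selected class. Baboon libraries were counted on another reference and annotation, and the library of baboon 2 was made with version 3 of the 10x chemistry where all others had version 2. Species, age, annotation and, for baboon 2, chemistry cannot be told apart, and values are only set side by side. AMH was at 7086 and 8019 CPM in the baboons and 6413 and 7039 CPM in rhesus 1 and rhesus 2, and INHA at 709 and 473 CPM and 2027 and 1795 CPM. FSHR was at 14.2 and 41.9 CPM and 18.1 and 27.7 CPM, and CDH2 at 135 and 143 CPM and 92.2 and 173 CPM. These lay within a few fold of each other.

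Several transcription factors did not. WT1 was at 186 and 134 CPM in the baboons and 3.95 and 15.0 CPM in rhesus, GATA4 at 297 and 250.3 CPM and 3.84 and 25.5 CPM, DMRT1 at 72.5 and 72.3 CPM and 1.24 and 2.80 CPM, and NR5A1 at 45.2 and 62.5 CPM and 0.339 and 1.68 CPM. CITED1 went the other way, with 6 UMIs and 0 UMIs in the baboons' Sertoli sums against 379 and 1569.7 CPM in rhesus. IGF2 was at 6.97 and 39.2 CPM and 347 and 1224 CPM. CLU, DEFB119 and SOX8 were not found under those symbols in the baboon table.

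**Figure D5:**
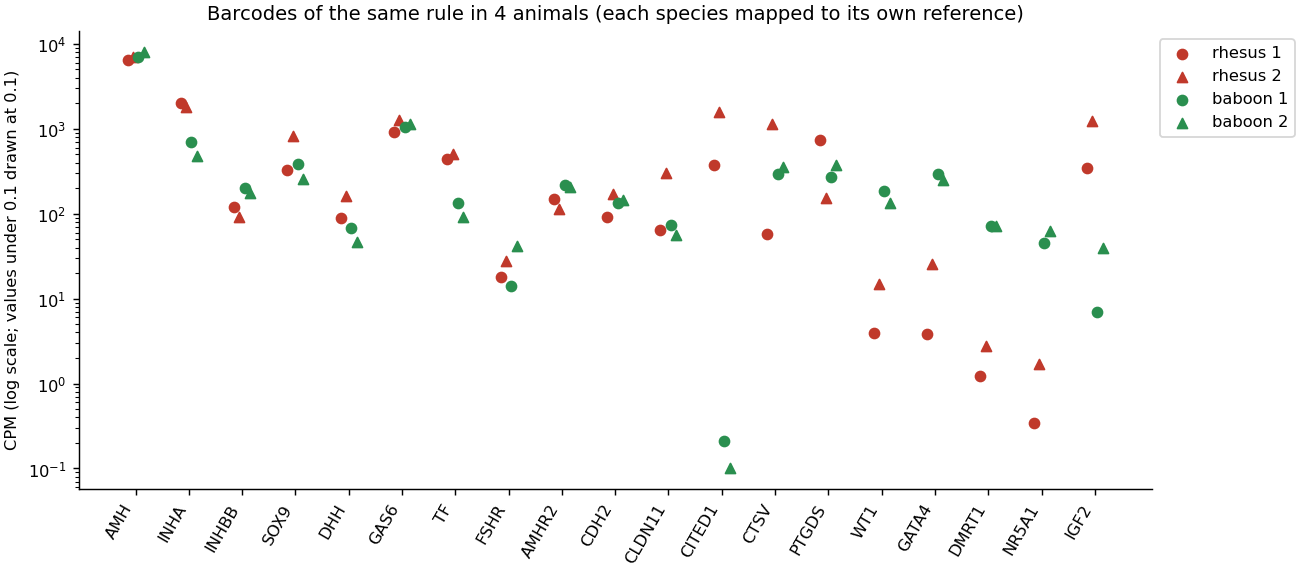
Sertoli level (CPM, log scale) of genes found under the same symbol in both species, for each of the 2 rhesus and 2 baboon animals; free RNA met the rule in baboon and not in rhesus. AMH lay between 6413 and 8019 CPM in all 4 animals, while WT1, GATA4, DMRT1 and NR5A1 were lower in both rhesus animals and CITED1 was higher.

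Sertoli barcodes also differed among themselves within a library. At 1000 UMIs each, the median barcode held 6 AMH UMIs in rhesus 1 and 2A and 7 in 2B, and 2.26 to 3.52% held none. SOX9 was at 0 in 81.8% of barcodes of rhesus 1 and in 50.6% and 50% of those of 2A and 2B. AMH and SOX9 are genes of the rule, so their spread among its members was shaped by the choice. The ratio of variance to mean, which is 1 for counts scattered by chance alone, was 2.30, 3.18 and 2.64 for AMH. It was 4.29, 3.69 and 3.56 for FOS and 2.60, 3.65 and 3.37 for JUN, both immediate early genes, with a UMI in 29.2, 52.8 and 53.9% and 26.3, 64.0 and 63.2% of barcodes, and 2.13, 11.1 and 10.6 for IGF2. B2M, the light chain of class I histocompatibility molecules, had ratios of 2.75, 4.42 and 5.58 and a UMI in 97.2, 50.6 and 50.8% of barcodes. These 4 genes besides AMH were chosen after their values were seen. A gene without a symbol lay above them in each library, with ratios of 21.5, 12.1 and 12.9. All other barcodes held IGF2 at 6984, 9561 and 9513 CPM, and the part of mixed barcodes or free RNA in its ratios was not tested.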

How the data were processed

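Testis cell suspensions were profiled with 10x Genomics chemistry (version 2 for the rhesus libraries). The authors aligned and counted reads with Cell Ranger 3.1.0 on Mmul_10 for rhesus, and the submitters' processing notes name Seurat 3.2.3. The deposited matrices hold raw UMI counts for all barcodes, with no cell calling, filter or normalization. Shares of cells therefore depend on the UMI minimum set here.

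Barcodes with at least 1000 UMIs were classed by the rule, and CPM are UMIs of a gene per 1000000 UMIs of a class, not divided by length. Counts were summed per animal and class (2A and 2B together) and tested with edgeR 4.0.16 in R 4.3.3 (quasi-likelihood, TMM, filterByExpr, Benjamini-Hochberg, threshold 0.05), with 17 genes of the rule left out of the counts of calls. Both classes of an animal share its cells, and their deviations from the class means correlated across genes (r = 0.661 with all other barcodes, 0.563 with stroma-gated ones), so the fit with the animal as a block is given beside the main one. A planned fit of 3 classes held 2, because KRT19-high barcodes numbered 1. Shares of barcodes with a UMI were taken after thinning to 1000 UMIs. Ratios between animals were named when past 2-fold against both 2A and 2B at 50 CPM or more. Doublets were scored with Scrublet in scanpy 1.11.5, and none was removed.

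The members and gene lists were chosen with earlier results of these data known. Genes named are those of the rule, members of the lists, the 15 genes with the largest rise and the 10 with the largest fall outside them (called, 50 CPM or more in the higher class of both animals, at least 10 UMIs in the lower class), and 8 per direction between the animals; 2 genes of the lists are not reported here. On simulated counts for the comparison with all other barcodes (12476 genes, 200 changed by 2 on the log2 scale), 24.4% of changed genes were recovered and 14.4% of calls were false. No other per-sample columns were present. Alternatives were another scaling, no filter, DESeq2 1.42.0, the block, each sum left out, the 3 libraries as samples, other limits of the rule, doublets left out and thinning.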

Additional observations from a re-analysis of the deposited data

Results flagged for a closer look

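Genes of the lists whose Sertoli barcodes lay above all other barcodes in one animal and below them in the other, by at least 0.5 on the log2 scale each way and with at least 100 UMIs in each animal, were taken for a closer look. The 6 reported here were all above in rhesus 2 and below in rhesus 1, and further genes differed in direction but by less than this in at least 1 animal. These differences between the animals were not tested, since each side is 1 animal. PROS1, which encodes protein S, a ligand of the same receptors as GAS6, had a log2 ratio of Sertoli over other barcodes of 1.84 in rhesus 2 and -0.65 in rhesus 1. RGS5, a pericyte marker, had 0.86 and -1.13. DUSP1 and EGR1, immediate early genes, had 0.83 and -1.05, and 0.83 and -0.90. MFGE8, a bridging protein in the uptake of dying cells, had 0.67 and -0.76, and NOTCH2, a Notch receptor, 0.59 and -0.61.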

How the results depend on the processing

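The number of calls depended on the processing, and some directions turned. Against all other barcodes, 782 genes were called as reported, 1764 with no filter on low counts, 1803 with DESeq2, 3690 with the 3 libraries as samples, 772 to 1200 with a sum left out, and, in an alternative chosen after seeing the data, 1325 without barcodes holding other cell type markers. Pairing the sums with the animal as a block gave 3988. Against stroma-gated barcodes 1433 genes were called as reported, 2498 with no filter, 2152 with DESeq2, 4148 with the 3 libraries as samples and 550 to 1827 with a sum left out (872 without the Sertoli sum of rhesus 1 and 550 without that of rhesus 2), and the block gave 3832. The rule kept 13710 barcodes at 500 UMIs and 2722 at 2000 UMIs, where the share in rhesus 2 was 38.4%. Genes past 2-fold between the animals numbered 148 at 3-fold, 213 at 100 CPM, 990 after thinning, 247 at 2000 UMIs and, chosen after seeing the data, 327 centred on the median. Against all other barcodes the log2 fold change with a sum left out ranged from -0.25 (without the Sertoli sum of rhesus 2) to 1.46 for CLDN11, -3.11 (without the same sum) to 8.81 for CST9L, -1.04 to 0.68 (without the other barcodes of rhesus 1) for DMRT1, -0.68 (without the Sertoli sum of rhesus 2) to 1.64 for NR5A1, which also turned without the other barcodes of rhesus 2 (-0.26), and -0.34 to 0.092 for STAR, which also turned at 500 UMIs (0.0039) and after thinning (0.36). Against stroma-gated barcodes it ranged from -0.61 to 1.09 for CLDN11 and -2.52 to 8.44 for CST9L (both lowest without the Sertoli sum of rhesus 2) and from -1.22 (without that of rhesus 1) to 3.22 for INSL3, and LYZ turned (-0.80) without barcodes holding other cell type markers. The median of all genes moved to -0.13 with no filter and -0.11 without the Sertoli sum of rhesus 2. The causes were not tested. Over all genes named and settings, 2739 values kept their direction and side of the threshold, 127 were weaker, 74 stronger and 13 turned. The alternatives for KRT19-high barcodes were not run, since there was 1 such barcode. With 2 animals and a median of 679 to 1089 genes per Sertoli barcode, sparse genes such as NR5A1 could not be judged, and a lone sum was assumed to vary like the other class.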
